A study of Mus musculus with 23 samples.

Results

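The genes followed here through the mouse hippocampus are antiviral genes switched on by interferon: Ifit1, Ifit3, I830012O16Rik, Isg15, Usp18, Rsad2, Oasl2, Irf7 and Bst2. These 9 of the 13766 genes in the deposited table were chosen by name, from earlier results of the same data in which they differed between the groups. Their levels and differences are therefore given as a description, and no p-value of a single member is printed. Calls of members and counts of p under a threshold, where given, are part of that description and not evidence. The animals came from the FCG model, in which the testis-determining gene Sry is missing from the Y chromosome and carried as a transgene on an autosome, so that the gonad is inherited apart from the sex chromosomes. The 23 libraries, each from a different animal, formed 4 groups. XX animals had ovaries (XXF, n = 5) or testes (XXM, n = 6), and so did XY animals (XYF, with ovaries, n = 6, and XYM, with testes, n = 6). All groups shared the C57Bl/6J background, a colony restarted from frozen embryos, the same chow and light cycle, and collection at about 12 months of age.

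Interferons are secreted proteins that warn cells of infection. Bound to their receptors they activate JAK kinases, which phosphorylate STAT proteins, and these join IRF9 to form a complex that binds the interferon-stimulated response element (ISRE) before its target genes. Microglia, neurons, astrocytes and vascular cells all carry the receptors, and brain tissue expresses many targets at a low level without infection.

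The model has limits that bear on these genes. Pups were caged after weaning by their genitalia, so cage type and gonad cannot be told apart. The XX and XY animals of this colony also differed in a distal block of the X chromosome. A list of 7 genes of it, chosen because they were higher in XY in earlier results of these data, had a median log2 fold change of 0.93, and held Tlr7, a sensor of single-stranded RNA that acts ahead of interferon. The Y genes Ddx3y, Eif2s3y, Kdm5d and Uty followed the labels in every library, with at most 0.437 CPM (reads of a gene scaled to a common library total) in any XX library and at least 12.8 CPM in any XY library. Xist, expressed from the inactive X chromosome, stood at 936 CPM or more in XX and at 2.87 CPM or less in XY, except for XYF replicate 4 at 94.1 CPM. Total estimated counts ran from 10257751 to 36078221 per library. All 10 markers of hippocampal and excitatory neurons were present, with a summed level from 6608 to 8591 CPM. In bulk tissue, fewer cells of a type and less RNA per cell cannot be told apart.

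The promoter sequences are shown first, since the ISRE is the element through which interferon reaches its target genes. Of the 9 genes, 8 had an entry among the RefSeq promoters (build GRCm38.p6), and Usp18 had none. The ISRE core was searched as GAAANNGAAA on both strands in the 250 bases before the gene start. It was found before 6 of the 8 members (Ifit1, Ifit3, I830012O16Rik, Isg15, Rsad2 and Bst2), against 2.98% of 32851 promoter windows and 3.01% of the 10897 genes of the table with a window. Oasl2 and Irf7 had no match to these letters in the window. The 50 bases around the match nearest the start follow, 5′ to 3′ on the strand of each gene, with every core inside them in capitals. On the opposite strand the core reads TTTCNNTTTC.
Ifit1, chr19:34640784-34640833, plus strand: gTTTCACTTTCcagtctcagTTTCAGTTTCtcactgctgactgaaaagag
Ifit3, chr19:34583387-34583436, plus strand: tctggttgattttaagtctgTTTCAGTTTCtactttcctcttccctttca
I830012O16Rik, chr19:34607783-34607832, plus strand: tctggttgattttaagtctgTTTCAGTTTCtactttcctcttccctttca
Isg15, chr4:156200855-156200904, minus strand: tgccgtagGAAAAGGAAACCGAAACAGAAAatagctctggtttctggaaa
Rsad2, chr12:26456543-26456592, minus strand: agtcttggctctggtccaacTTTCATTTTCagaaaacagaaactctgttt
Bst2, chr8:71537567-71537616, minus strand: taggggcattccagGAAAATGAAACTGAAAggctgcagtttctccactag

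Ifit1 held 2 separate cores, 104 to 95 and 85 to 76 bases before its start. Ifit3 and I830012O16Rik also held 2 each, of which the farther one, 156 to 147 and 188 to 179 bases before the start, lies outside the printed bases. The stretch printed for one is identical to that of the other. The capitals of Isg15 are 3 overlapping cores and those of Bst2 are 2. The core of the gamma-activated site (GAS), searched as TTCNNNGAA on both strands, was found before Bst2 alone among the 8, and in 7.02% of all windows. In Bst2 it lay 136 to 128 bases before the start and overlapped the first ISRE core. A match is a stretch of letters and not a measured binding site.

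**Figure D1:**
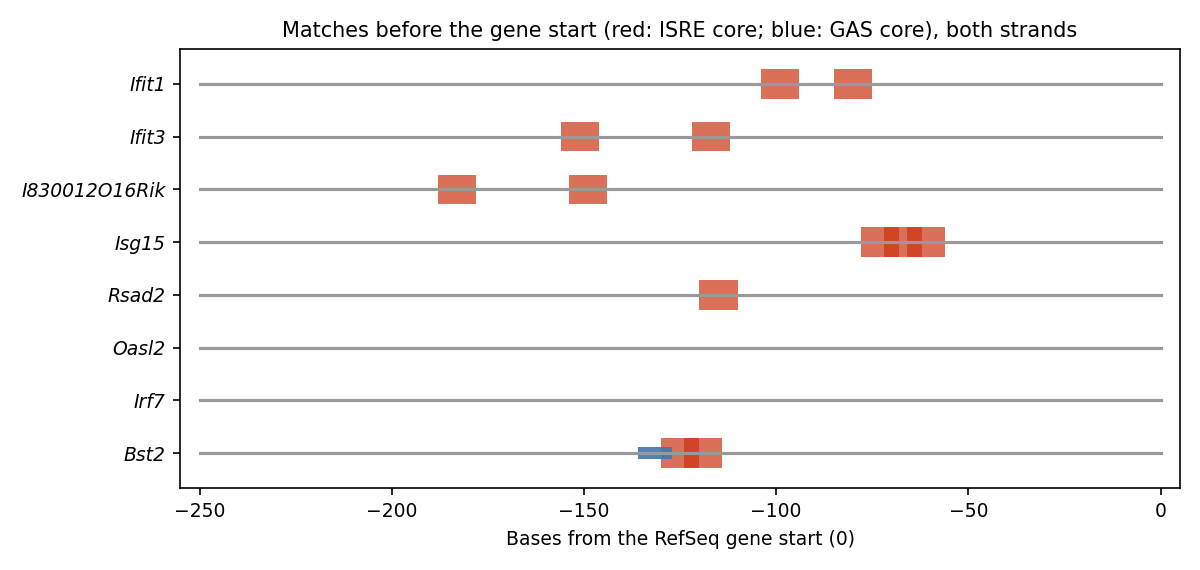
Matches to the ISRE core (red) and the GAS core (blue) in the 250 bases before the RefSeq start of the 8 members with a promoter entry; the x axis gives bases from the start and darker red marks overlapping matches. The ISRE core lies within 188 bases of the start in 6 genes, and the lines of Oasl2 and Irf7 are empty.

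Levels are given as CPM, scaled by the trimmed mean of M-values (TMM), and differences as log2 fold changes from an edgeR quasi-likelihood fit over all genes, with approximate standard errors. Calls were made where the Benjamini-Hochberg adjusted p, taken across all 13766 genes, was under 0.05. The replicates are separate animals, and any p measures the spread between them. All 9 members had their highest group mean in XYF. Their summed CPM was 89.5 ± 18.3 (SD, n = 6) for XYF, 33.1 ± 4.13 (SD, n = 5) for XXF, 27.0 ± 4.28 (SD, n = 6) for XXM and 36.1 ± 14.1 (SD, n = 6) for XYM. The deposited table kept genes with at least 20 counts in every library of at least 1 group. Ifit1, Ifit3, I830012O16Rik, Rsad2, Oasl2 and Bst2 met this in all 4 groups, Irf7 in XXF, XXM and XYF, and Isg15 in XXM and XYF. Usp18 met it in XYF alone, so it had to be high there to be listed at all.

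Irf7 is the transcription factor that amplifies the response by inducing interferon genes themselves (chromosome 7, 141263183 to 141266424). It stood at 1.56, 2.07, 2.14, 3.15 and 1.77 CPM in XXF replicates 1 to 5, and XXM ran from 1.24 to 2.30 with a median of 1.96 CPM. In XYF it ran from 4.35 to 9.37 with a median of 7.25 CPM. Every XYF library therefore lay above every XX library. XYM ran from 0.896 to 5.06 CPM with a median of 2.25, and only its highest library, replicate 1, reached into the XYF range. The log2 fold change of XYF over XXF was 1.69 ± 0.29 and that of XYM over XXM was 0.49 ± 0.28. A stretch of 45 bases (1.19% of the exonic length) overlaps Phrf1 on the opposite strand. Whether the counting used strand is not stated in the labels or headers.

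Usp18, a protease that strips ISG15 from proteins and also restrains the interferon receptor, is a feedback inhibitor (chromosome 6, 121245906 to 121270917). Its level was 1.69, 2.16, 1.97, 0.822 and 1.05 CPM in XXF replicates 1 to 5 and ran from 0.623 to 1.496 CPM (median 1.16) in XXM. XYF ran from 3.34 to 6.86 CPM (median 5.12) and XYM from 0.424 to 2.95 CPM (median 1.36). The XYF libraries lay above all 17 others, without overlap. Usp18 had the lowest estimated count of any member, 9.38 in XYM replicate 4, and so the coarsest values. Its log2 difference between XYM and XYF, -1.78 ± 0.29, was the widest among the members, with Ifit1 within its error. Of its exonic length 4.44% overlaps a lincRNA, Gm44148, on the opposite strand.

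Isg15 encodes the ubiquitin-like modifier that Usp18 removes (chromosome 4, 156199424 to 156200818). XXF replicates 1 to 5 stood at 1.73, 1.18, 1.43, 1.78 and 1.61 CPM. XXM ran from 0.848 to 1.496 CPM, XYF from 2.70 to 3.73 CPM and XYM from 0.915 to 2.21 CPM, with medians of 1.07, 3.24 and 1.19 CPM. Again no XYF library overlapped another group. Isg15 varied least within XYF, with a coefficient of variation of 13.1%, and had the smallest XYF over XXF difference, a log2 fold change of 1.05 ± 0.20.

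Ifit1 binds RNA whose cap lacks the methyl marks of the host and blocks its translation (chromosome 19, 34640889 to 34650009). Its level in XXF replicates 1 to 5 was 3.38, 5.21, 3.78, 3.26 and 2.09 CPM, and XXM ran from 1.59 to 3.16 CPM with a median of 2.28. XYF ran from 6.52 to 14.2 CPM with a median of 10.8, and XYM from 2.31 to 6.10 CPM with a median of 2.60. XYF was above every other library, though XYM replicate 1 at 6.10 CPM came close to XYF replicate 1 at 6.52 CPM. The other 5 XYM libraries were at most 2.93 CPM. Between XYF and XYM the log2 difference was -1.74 ± 0.23, a 3.34-fold lower level in XYM.

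Ifit3, a partner of Ifit1 in the same RNA-binding complex, and I830012O16Rik, which RefSeq names Ifit3b, are neighbouring near-copies on chromosome 19 (34583529 to 34588982 and 34607957 to 34613401). Of the 100-base windows of their transcripts, 31.7% of those of Ifit3 and 27.4% of those of I830012O16Rik occur unchanged in the other. Counting can split reads between them, so their separate levels are uncertain. Ifit3 stood at 10.9, 10.03, 12.2, 10.2 and 7.49 CPM in XXF and from 5.94 to 9.12 CPM in XXM. It ran from 15.3 to 31.1 CPM in XYF (median 27.7) and from 8.81 to 19.5 CPM in XYM (median 11.7). XYM replicate 1, at 19.5 CPM, was above XYF replicate 1, at 15.3 CPM, and those were the only libraries of the 2 groups that overlapped. I830012O16Rik had the same arrangement, with a CPM from 3.86 to 5.48 for XXF, 2.47 to 4.51 for XXM, 5.86 to 12.3 for XYF and 3.27 to 7.64 for XYM. Per kilobase of exon, Ifit3 was the highest member in XYF, at 14.97 ± 3.32 CPM per kb (SD, n = 6), and I830012O16Rik stood at 5.10 ± 1.12 (SD, n = 6).

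Oasl2 belongs to the oligoadenylate synthetase family, which senses double-stranded RNA (chromosome 5, 114896934 to 114912245). It stood at 4.18, 4.92, 2.80, 3.92 and 4.27 CPM in XXF and from 2.42 to 4.91 CPM in XXM, with a median of 3.53. XYF ran from 8.81 to 16.3 CPM with a median of 15.3, and XYM from 2.36 to 9.95 CPM with a median of 4.57. The lowest XYF library (replicate 1) and the highest XYM library (replicate 1) crossed, and all other XYF libraries were at 14.4 CPM or above. Oasl2 had the largest XYF over XXF difference of the members, a log2 fold change of 1.85 ± 0.25 (3.603-fold), with Usp18 next at 1.81 ± 0.32.

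Rsad2 encodes viperin, an enzyme that makes a nucleotide able to stop viral RNA synthesis (chromosome 12, 26442743 to 26456452). XXF replicates 1 to 5 stood at 1.38, 2.36, 2.14, 2.30 and 1.77 CPM, and XXM ran from 1.06 to 2.96 CPM. XYF ran from 2.99 to 7.12 CPM and XYM from 1.41 to 2.68 CPM. The XYF libraries lay above all others, but the lowest of them was barely above the highest XXM library, 2.99 against 2.96 CPM. The log2 fold change of XXM over XXF was -0.06 ± 0.25, the smallest in size among the members.

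Bst2 encodes tetherin, which holds budding virus at the cell surface (chromosome 8, 71534262 to 71537437), and was the exception. XXF replicates 1 to 5 stood at 5.95, 2.85, 3.07, 3.01 and 1.93 CPM, and XXM ran from 2.20 to 5.58 CPM with a median of 4.22. XYF ran from 5.51 to 10.3 CPM with a median of 7.62, and XYM from 1.75 to 7.67 CPM with a median of 2.18. Its XYF range overlapped that of all 3 other groups, and it was the only member whose mean was lowest in XYM, at 3.20 ± 2.28 CPM (SD, n = 6). It was also the only member lower in XYM than in XXM, with a log2 difference of -0.38 ± 0.31, and the only one higher in XXM than in XXF, at 0.30 ± 0.33.

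Bst2 also followed the choroid plexus content of the dissections. The summed level of 9 choroid plexus markers fell into 7 libraries from 3290 to 5803 CPM and 16 from 286 to 571 CPM (a division made after these values were seen). The 7 were XXF replicate 1, XXM replicates 1, 3, 4 and 5, XYF replicate 5 and XYM replicate 1. In all 4 groups every such library had more Bst2 than every other library of its group, by a mean of 0.93 on the log2 scale. Rsad2 did so in 3 of 4 groups, by a mean of 0.60, and the other members in 1 or 2 groups, by 0.11 to 0.46. In XXF, XYF and XYM only 1 library was of this kind. That of XYM, replicate 1, was the highest of its group in 9 of 9 members, so every member met the pattern in at least 1 group. The share of all genes with the pattern was not counted. With a choroid plexus covariate in the fit, the Bst2 gonad difference was -0.76 in place of -0.46 and its sex chromosome difference 0.61 in place of 0.38. The same covariate turned both of its smaller differences, XYM against XXM from -0.38 to 0.04 and XXM against XXF from 0.30 to -0.19.

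**Figure D2:**
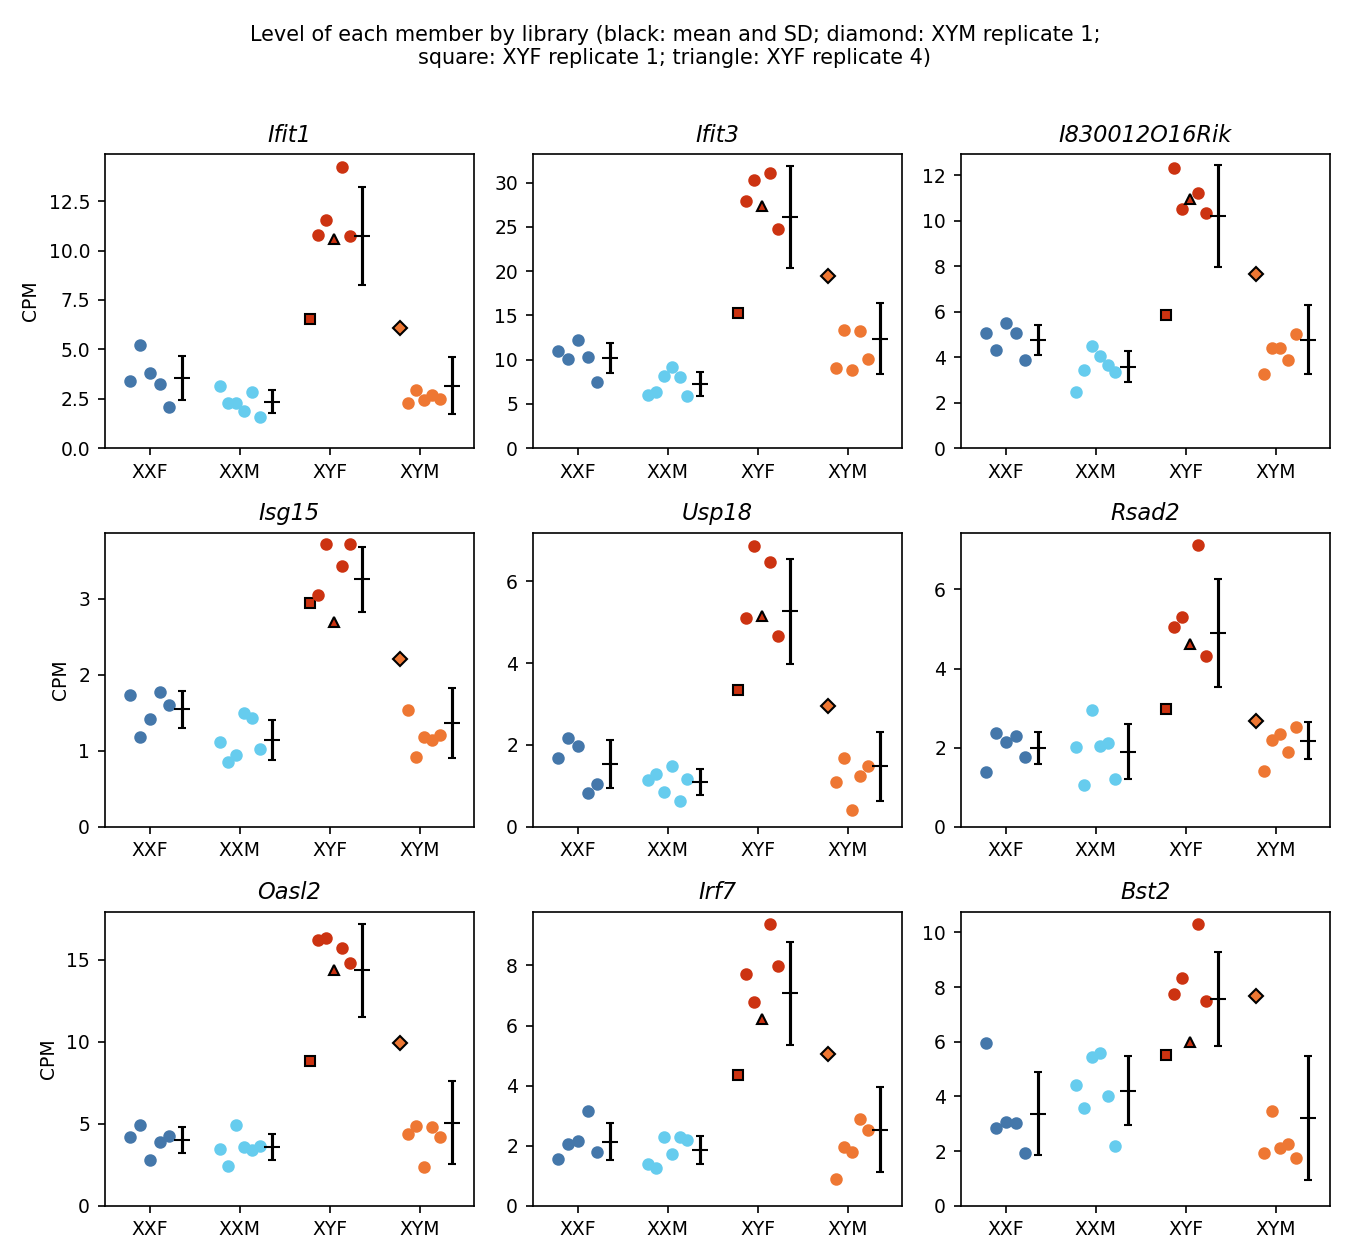
Level of each member in CPM (y axis from 0) in every library, by group on the x axis; the black line beside each group is the mean with its SD. XYF has the highest mean in all 9 panels, and the XY groups do not overlap in 4 of them. In the others XYM replicate 1 (diamond) lies above XYF replicate 1 (square), and in Bst2 above XYF replicates 4 and 6 too.

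The order of the groups below XYF was not resolved for any member. The means ran XXM, XXF, XYM, XYF in Ifit3, I830012O16Rik, Rsad2, Oasl2 and Irf7, and XXM, XYM, XXF, XYF in Ifit1, Isg15 and Usp18. Within these orders all neighbours below XYF overlapped. Every XYF library was above every XXF library in 8 of the 9 members, a pattern that 0.552% of all genes showed, and above every XXM library in the same 8 (0.523% of all genes). It was above every XX library in 8 (0.305% of all genes) and above every XYM library in 4, Ifit1, Isg15, Usp18 and Rsad2 (0.182% of all genes). The members were chosen from these contrasts, so nothing is read from these shares.

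The crossed design separates differences by sex chromosome from differences by gonad and allows a test of whether one depends on the other. In animals with ovaries, XYF over XXF, the members' log2 fold changes ran from 1.05 to 1.85 with a median of 1.35, and 8 of 9 were called higher, all but Bst2 (0.262% of all genes were). In animals with testes, XYM over XXM, they ran from -0.38 to 0.77 with a median of 0.45, and 0 of 9 were called (0.116% of all genes were, in either direction). In that comparison 3 members and 728 genes had an unadjusted p under 0.05 with edgeR. Limma voom called 0 members among 17 genes, and DESeq2 called 1 member among 21 genes. Without XYM replicate 1 the members' median in that comparison was 0.14. Each member's difference was larger in size with ovaries than with testes, Bst2 included, and the interaction tests that contrast.

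Between the XY groups, XYM over XYF, the log2 fold changes ran from -1.78 to -1.07 with a median of -1.24, and 8 of 9 were called lower, again all but Bst2 (0.225% of all genes were). Between the XX groups, XXM over XXF, they ran from -0.58 to 0.30 with a median of -0.42. Here 0 of 9 members and 0 of 13766 genes (0%) were called with edgeR, 4 members and 1061 genes had an unadjusted p under 0.05, limma voom called 0 genes and DESeq2 called 1, which was no member. XYF enters both the comparison with XXF and that with XYM, so these are not separate evidence of a high level in XYF.

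**Figure D3:**
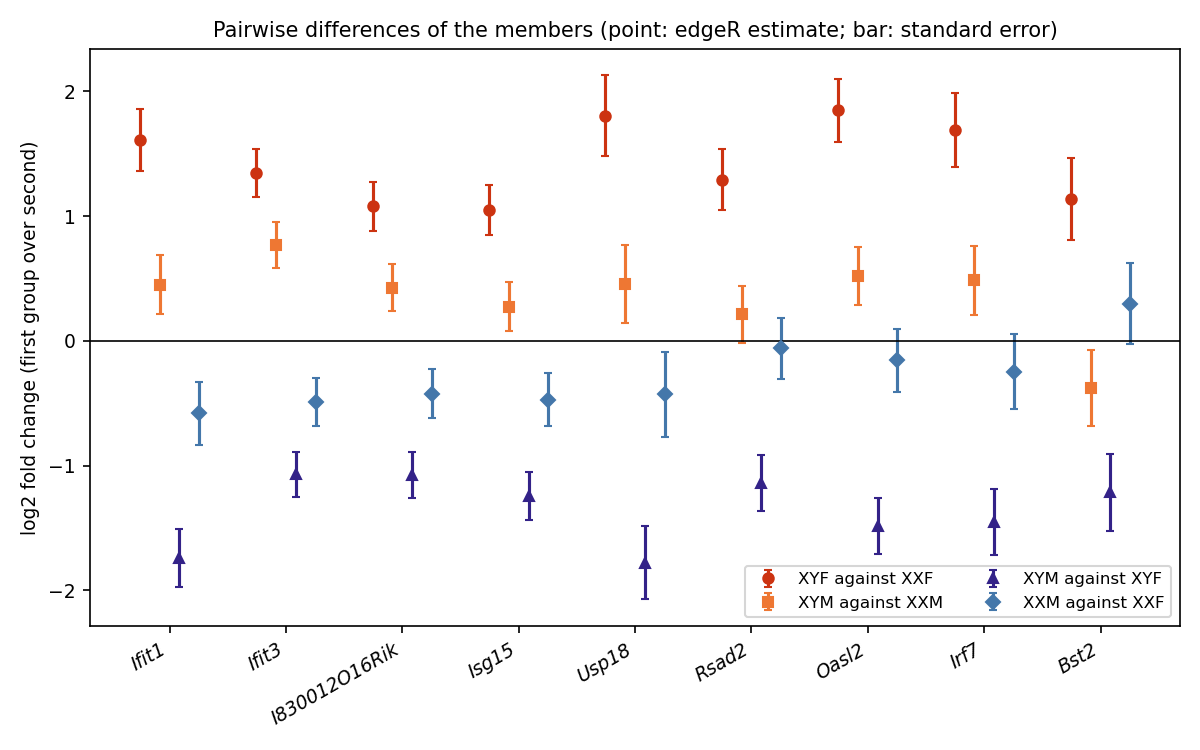
Log2 fold change of each member (x axis) in the 4 pairwise comparisons, with the edgeR estimate as a point and its standard error as a bar. The XYF against XXF points lie between 1.05 and 1.85 and the XYM against XYF points between -1.78 and -1.07, while the other 2 comparisons lie nearer to 0.

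Averaged over gonads, the sex chromosome difference (XY minus XX) ran from 0.38 in Bst2 to 1.19 in Oasl2, with a median of 1.03, and 8 of 9 members were called higher (0.24% of all genes were). Averaged over sex chromosomes, the gonad difference (testes minus ovaries) ran from -1.16 in Ifit1 to -0.46 in Bst2, with a median of -0.82. In it 6 of 9 were called lower, all but Rsad2, Irf7 and Bst2 (0.145% of all genes were). Each average combines pairwise differences of unequal size, given above. The calls of Ifit1, Ifit3 and I830012O16Rik in both effects were kept whichever library was left out. The sex chromosome call of Rsad2 was lost in 18 of 23 such fits and that of Isg15 in 12, and the gonad call of Oasl2 was lost in 15 and that of Usp18 in 9.

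The interaction is the XYM minus XXM difference less the XYF minus XXF difference, and it tests directly whether the sex chromosome difference depends on the gonad. It was below 0 in all 9 members, from -1.51 ± 0.45 in Bst2 to -0.58 ± 0.26 in Ifit3, with a median of -1.16. With edgeR 0 of 9 members and 0 of 13766 genes (0%) were called, while all 9 members and 444 genes had an unadjusted p under 0.05. DESeq2 and limma voom also called 0 genes. Without XYM replicate 1, Oasl2 (-1.65 ± 0.27) and Bst2 (-2.01 ± 0.36) were called, among 0.0218% of all genes called lower. The choroid plexus markers moved the same way, with a median interaction of -1.98 over 9 markers in all libraries (0 called by edgeR and 0 with an unadjusted p under 0.05). Without XYM replicate 1 no XYM library held much choroid plexus, against 4 of 6 XXM libraries. With that animal left out and the choroid plexus covariate added, a setting chosen after the data were seen, Oasl2 stood at -1.42 ± 0.28 and Bst2 at -1.48 ± 0.29, and edgeR called neither. With the covariate in all libraries Bst2 stood at -1.14 and Ifit3 at -0.34. Thus a dependence on the gonad did not pass the test in the full set of libraries, and for these 2 genes it passed without 1 animal but not once the covariate was added. The members were chosen with this contrast known, so these outcomes are a description.

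That animal, XYM replicate 1, was the highest of its group in 9 of 9 members. Averaged on the log2 scale, it stood 2.16-fold above the other 5 XYM libraries, and its summed level was 63.7 CPM against 25.9 to 35.8 CPM. In 8 of 9 members, all but Rsad2, it was above every XX library. Without it the XYM sum was 30.6 ± 4.57 CPM (SD, n = 5), and the other 5 XYM libraries were below every XYF library in 9 of 9 members. XYF replicate 1 was the lowest of its group in 8 of 9 members, at 0.613-fold of the other XYF libraries and with a sum of 55.6 CPM against 88.0 to 109.0 CPM. The share of all genes with these patterns was not counted, so nothing about the members is read from them. Both animals were singled out after the data were seen. These animals carry the lowest numbers in the labels, which do not say what the numbers record. The Y genes and Xist check the sex chromosomes only. The gonad labels of both animals were not checked here, and an error in them would change the gonad, interaction and XYM or XYF values. XYF replicate 4, with its added Xist signal, was unremarkable in the members, at 88.0 CPM in sum.

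Leaving out XYM replicate 1 alone changed the member counts to 6 called in the sex chromosome effect and 7 in the gonad effect, with Isg15 and Rsad2 losing the first and Irf7 gaining the second, and to 9 in both XYF against XXF and XYM against XYF. The counts over all genes moved too, to 36, 49, 51 and 50 of 13766 in these comparisons, from 39, 22, 40 and 31. It lowered the Bst2 sex chromosome difference to 0.13. With XYM replicate 1, XYF replicate 1 and XYF replicate 4 all left out, 7 members were called in each of the sex chromosome and gonad effects and 3 in the interaction (Ifit1, Oasl2 and Bst2), among 41, 44 and 7 of all 13766 genes. This setting was chosen after the data were seen.

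**Figure D4:**
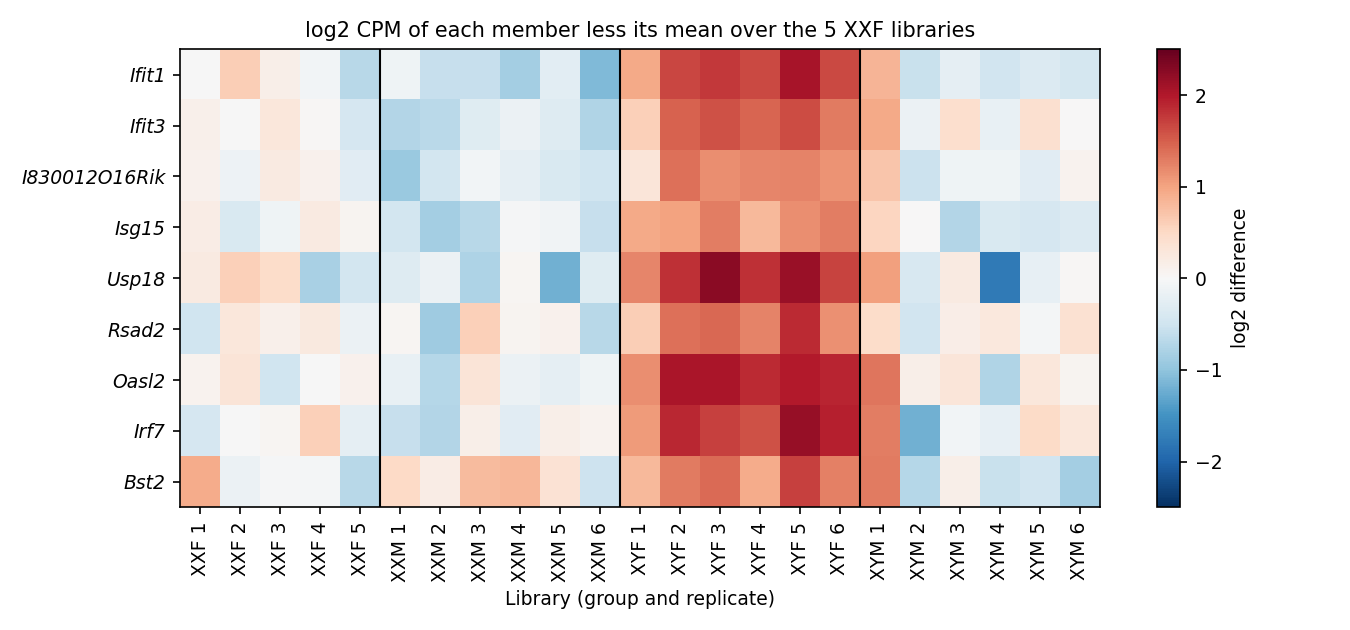
Each member (rows) in each library (columns, by group and replicate), as log2 CPM less the mean over the 5 XXF libraries; red is higher and blue lower. Of the 6 XYF columns, 5 are uniformly red, XYF 1 is paler, and XYM 1 is the 1 red column outside XYF.

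Within groups, likeness between members was described with and without 2 libraries. After removal of the group means, the correlation of log2 CPM over 23 libraries had a median of 0.549 over the 36 pairs of members, from 0.108 for Usp18 with Rsad2 to 0.822 for Ifit3 with I830012O16Rik, which share sequence. The 2 libraries, XYM replicate 1 and XYF replicate 1, were picked because their member average, less its group mean, deviated most. Without them the same pairs ran from -0.19 to 0.71 with a median of 0.30. Leaving out libraries picked in this way tends to lower the correlations, so nothing is read from the drop. The same libraries and depths enter every pair, and these values are a description.

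Several markers of other cell types were set beside the members. The blood genes Hba-a1, Hba-a2 and Alas2 were highest in XYF, with sums from 108 to 257 CPM, against 55.3 to 133 in XXF, 63.8 to 115 in XXM and 61.7 to 142 CPM in XYM. All 3 fell in XYM against XYF with edgeR (smallest adjusted p = 0.0224; median log2 fold change -1.08), and the highest XYM sum, 142 CPM, was that of replicate 1. The 12 microglia markers summed to 558 to 708 CPM in XYF and 513 to 638 CPM over the other groups, and 0 of 12 were called in any comparison (7 had an unadjusted p under 0.05 in XYM against XYF). The 4 measured markers of border macrophages and lymphocytes summed to 8.89 to 18.4 CPM in XYF and 7.15 to 16.1 CPM elsewhere, with 0 of 4 called, while others, among them Cd3e, Cd3d, Cd8a, Nkg7 and Lyve1, were not analysed here. Endothelial markers summed to 193 to 230 CPM in XYF and 174 to 235 CPM elsewhere, and 0 of 6 were called. The part of blood, microglia or other cells in the members' levels was not tested. With the choroid plexus covariate, 9 of 9 members were called in XYF against XXF, XYM against XYF and the gonad effect, 8 in the sex chromosome effect, 1 (Ifit3) in XYM against XXM and 0 in the interaction. Over all 13766 genes that covariate gave 54, 44, 44, 64, 18 and 0 calls in the same order, against 40, 31, 22, 39, 16 and 0 without it.

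The rest of the pathway was read from lists that are not independent of earlier results of these data. None of the 9 interferon ligand genes looked for was in the table, so they were not analysed here. The receptor genes Ifnar1, Ifnar2, Ifngr1 and Ifngr2 had sex chromosome differences from -0.05 (Ifngr2) to 0.07 (Ifngr1) and gonad differences from -0.05 (Ifngr1) to 0.08 (Ifnar2). With edgeR 0 of 4 were called in any comparison, and 0 of 4 had an unadjusted p under 0.05 in either main effect. Of 12 genes that carry the signal onward, Irf9, the DNA-binding part of the complex that recognises the ISRE, had the highest sex chromosome difference, at 0.34 ± 0.11, and the lowest gonad difference, at -0.33 ± 0.11, neither of which passed. Irf3 was lowest by sex chromosome, at -0.09, and Stat3 highest by gonad, at 0.04.

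Of 5 negative regulators of the signal looked for besides Usp18, Socs1 was not in the table. Of the rest, Socs3, Pias1, Ptpn6 and Ptpn11, 0 of 4 were called. Their sex chromosome differences ran from -0.17 (Socs3) to 0.06 (Pias1) and their gonad differences from -0.09 (Socs3) to 0.04 (Pias1). The enzymes that attach ISG15, Uba7, Ube2l6, Herc6 and Trim25, had XYF over XXF differences from 0.31 to 0.50, below the 1.05 of Isg15, and 0 of 4 were called in any comparison (3 had an unadjusted p under 0.05 in XYF against XXF). A further list of 11 genes held sensors of foreign nucleic acid and proteins that act with them. In it Tlr7 was called by sex chromosome, at 1.07 ± 0.11 (edgeR adjusted p = 2.79e-07), with a gonad difference of -0.01 ± 0.11. The CPM of Tlr7 was 8.89 ± 1.52 for XYF and 7.78 ± 1.63 for XYM (SD, n = 6 each). Its log2 fold change was 1.25 in XYF over XXF and 0.88 in XYM over XXM, with an interaction of -0.37. The part of Tlr7 in the members' levels was not tested. In XYF over XXF 2 sensors rose, Tlr7 and Ddx58, the latter by 0.75 ± 0.15 (edgeR adjusted p = 0.0126). Ddx58 encodes the RNA sensor RIG-I, is itself induced by interferon, and is named here after its value was seen. The lowest of the 11 by sex chromosome was Myd88, at -0.17, and by gonad they ran from -0.36 (Dhx58) to 0.26 (Mavs). Myd88 and Mavs are adaptors that pass on the signal of sensors.

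Of 85 other interferon-stimulated genes looked for, 67 were in the table, and some of them, such as Irf9 and Ddx58, also stand in the lists above. Genes of the table that met the deposit filter in 1 group alone numbered 21 for XYF, 2 for XXF, 255 for XXM and 55 for XYM. How many of the 67 were among those 21 was not counted. Such genes had to be high in XYF to be listed, so the differences below are a description. By sex chromosome 63 of the 67 were above 0, with a median of 0.27 against 0.00133 over all genes, and 5 rose, among them Gbp3, Iigp1, Gbp6 and Irgm2, while 0 fell. By gonad 60 of 67 were below 0, with a median of -0.25, and 7 fell, among them Gbp3, Gbp7, Gbp5, Gbp2, Iigp1 and Gbp4, while 0 rose. The genes named here encode interferon-inducible GTPases, the guanylate-binding proteins (Gbp) and the immunity-related GTPases (Iigp1 and Irgm2), which attack the vacuoles of intracellular pathogens. In XYF over XXF the median was 0.48 and 9 of 67 rose, and in XYM over XYF it was -0.46 and 12 of 67 fell. In XYM over XXM the median was 0.07 and 0 of 67 were called (2 had an unadjusted p under 0.05). The members' medians in these comparisons, 1.35, -1.24 and 0.45, were farther from 0, the members having been chosen with these differences known.

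Gbp3 had the smallest p of the 67 in both main effects. The Gbp genes are a family of similar copies between which counting can split reads, so their separate values are uncertain. Its CPM was 4.72 ± 0.362 for XXF (SD, n = 5), 3.67 ± 0.494 for XXM, 10.1 ± 1.31 for XYF and 5.06 ± 0.992 for XYM (SD, n = 6 each). It rose by sex chromosome by 0.78 ± 0.09 (edgeR adjusted p = 6.67e-06) and fell by gonad by 0.67 ± 0.09 (edgeR adjusted p = 0.000979), and both calls were kept whichever library was left out. Iigp1 followed, at 6.47 ± 2.11 CPM in XYF (SD, n = 6) against 2.43 ± 0.364 CPM in XXF (SD, n = 5), with 1.03 ± 0.17 by sex chromosome (edgeR adjusted p = 0.00147). Gbp6 rose by 0.87 ± 0.18 (edgeR adjusted p = 0.019), and like Bst2 had a higher mean in XXM than in XXF, 3.21 against 2.59 CPM. Gbp7, Gbp5, Gbp2 and Gbp4 fell by gonad, by log2 differences from -0.78 (Gbp4) to -0.49 (Gbp7), with edgeR adjusted p from 0.00477 to 0.0129. Irgm2, at 0.50 ± 0.11 by sex chromosome (edgeR adjusted p = 0.0403), lost its call in 16 of 23 fits with a library left out. The interaction was called in 0 of the 67 with edgeR, DESeq2 and limma voom, while 26 had an unadjusted p under 0.05.

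**Figure D5:**
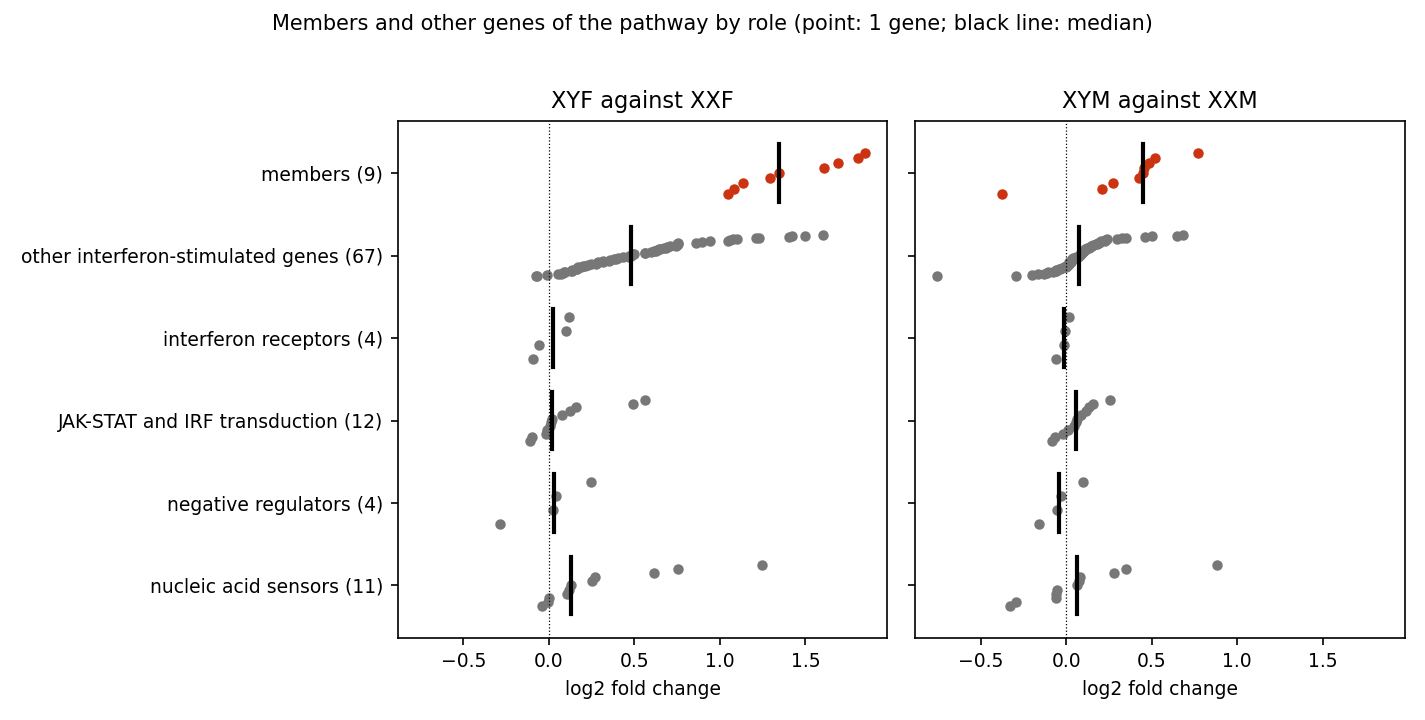
Log2 fold change (x axis) of the 9 members (red) and of other genes of the pathway (grey) by role, in animals with ovaries (left) and with testes (right); each point is 1 gene and black lines are medians. The members' median is 1.35 on the left and 0.45 on the right, that of the 67 other interferon-stimulated genes 0.48 and 0.07, and the 4 receptors lie near 0 in both panels.

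Outside the members, the genes whose deviation from the group mean most resembled the members' average over the 23 libraries were, by Pearson r, Pomgnt1 (0.819), Lgals3bp (0.816), Ucp2 (0.810), Ifi27l1 (0.807), Paqr5 (0.794), Aldh2 (0.793), Igfbp7 (0.792) and H2-D1 (0.790). Lgals3bp alone of the 8 belonged to the list of 67, and 6 of the 50 most alike genes did. Without XYM replicate 1 and XYF replicate 1, picked as farthest out in the members' average, r on 21 libraries was 0.742 for Pomgnt1, 0.721 for Lgals3bp and 0.538 for H2-D1. Lgals3bp stood at 36.6 CPM as a mean in XYF against 17.6 CPM in XXF, whereas Pomgnt1 stood at 78.2 against 78.5 CPM, with 80.1 CPM in XXM and 73.4 CPM in XYM.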

How the data were processed

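Hippocampal RNA from 23 mice was depleted of ribosomal RNA and made into strand-specific libraries, per the labels' protocols. The authors deposited 1 table with raw estimated counts per gene, per the file headers, and normalized values on a log2 scale; mm10 and DESeq are named in the submitters' processing notes, without a role. For the aligner, the counter and its use of strand, the sources used here give nothing. Groups came from the labels for sex chromosome and gonad, and replicate numbers follow accession order. The lowest chi-square per gene between libraries of a group was 4.30, so each counted as 1 replicate.

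Estimated counts were rounded and fitted with edgeR 4.0.16 (R 4.3.3), with TMM scaling and a mean for each group, and calls used Benjamini-Hochberg adjustment over 13766 genes. Standard errors were derived from each log2 fold change and its F statistic and are approximate. Tests are 2-sided. filterByExpr removed 0 genes. Alternatives were relative log expression factors, no filter or a minimum CPM of 1 in 5 libraries, covariates for choroid plexus and depth, limma 3.58.1 (voom, and on the deposited log2 values), DESeq2 1.42.0, CPM over plain totals, and each library left out in turn. Chosen after the data were seen were 20 libraries without 3 that stood apart, and XYM replicate 1 left out together with the choroid plexus covariate. The steps were tested on simulated data.

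The members, the gene lists and the choices of test were made with earlier results of these data known. Text names all members, the genes that check the labels, other interferon-stimulated genes called in a main effect or the interaction (at most 12), called genes and the highest and lowest of each upstream list, and the 8 genes most like the members. Values of 1 gene that this rule names are left out. Promoters came from the RefSeq table and exon lengths from the gene annotation of build GRCm38. Likeness is the Pearson correlation of log2 CPM (prior count 2) less its group mean.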

Additional observations from a re-analysis of the deposited data

Results flagged for a closer look

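Samples far from the rest of their group were looked for in 80 groups of values, and chance flags about 1 in 20. There were 12, of which 6 fell among the 36 groups of member values. XYM replicate 1 stood above the other XYM libraries in Ifit1 (6.10 CPM, next highest 2.93), Oasl2 (9.95 CPM, next highest 4.85) and Bst2 (7.67 CPM, next highest 3.48). The same library was highest in summed choroid plexus markers (4631 CPM, next highest 571) and in summed blood markers (142 CPM, next highest 88.2). XYF replicate 1 stood below the other XYF libraries in I830012O16Rik (5.86 CPM, next lowest 10.3) and Oasl2 (8.81 CPM, next lowest 14.4). XXF replicate 1 was highest of its group in Bst2 (5.95 CPM, next highest 3.07) and in choroid plexus markers (3290 CPM, next highest 511). XYF replicate 5 was highest in choroid plexus markers (5803 CPM, next highest 519), and XXF replicate 5 lowest in blood markers (55.3 CPM, next lowest 119). XYF replicate 4 held Xist at 94.1 CPM, against at most 2.79 CPM in the other XYF libraries. The part of any of these in the members' values was not tested.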

How the results depend on the processing

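Counts of called members moved by more than 1.5 times in few settings. In the interaction the count of 0 became 2 without XYM replicate 1 (range 0 to 2 over the libraries left out in turn) and 3 with 20 libraries, XYM 1, XYF 1 and XYF 4 left out. Over all genes these settings called 3 and 7. In XYM against XXM the count of 0 became 1 with the choroid plexus covariate and 1 with DESeq2, which called 18 and 21 over all genes. Over the libraries left out in turn, members called ran from 6 to 8 by sex chromosome, 4 to 7 by gonad, 7 to 9 in XYF against XXF and 7 to 9 in XYM against XYF. By gonad the count of 6 became 4 with limma voom and with the depth covariate, both without Usp18 and Oasl2. By sex chromosome the count of 8 became 6 with limma on the deposited log2 values, without Usp18 and Rsad2, and 7 with limma voom and with the depth covariate, without Rsad2. For the ranges and for the limma and depth settings, the counts over all genes are not given here. Nothing about the members is read from these shifts.

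The other interferon-stimulated genes moved more. By sex chromosome the count of 5 became 19 with the choroid plexus covariate and 8 with DESeq2, and ran from 3 (without XXF replicate 2 or XXF replicate 4) to 9 (without XYF replicate 1). By gonad the count of 7 became 15 with that covariate, 2 with a depth covariate, 12 with DESeq2 and 13 with 20 libraries, and ran from 5 to 11 (without XYM replicate 1). With that covariate on 22 libraries, XYM 1 left out, the counts became 9 by sex chromosome, 21 by gonad, 17 in XYF against XXF and 22 in XYM against XYF. In the interaction the count of 0 became 3 with 20 libraries and ran from 0 to 1 (without XYF replicate 1 or XYM replicate 1). In XYF against XXF the count of 9 became 17 with the choroid plexus covariate, 18 with DESeq2 and 16 with 20 libraries, and ran from 6 to 15 (without XYM replicate 1). In XYM against XYF the count of 12 became 21 with that covariate and 22 with 20 libraries, and ran from 6 (without XYF replicate 5, XYM replicate 4 or XYM replicate 6) to 25 (without XYM replicate 1). The counts over all genes moved too. With the choroid plexus covariate they became 64 by sex chromosome, from 39, and 44 by gonad, from 22. Without XYM replicate 1 the count in XYM against XYF became 50, from 31. For DESeq2 and the depth covariate they are not given here for these comparisons. Nothing about these genes is read from the shifts, and the cause was not tested.

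The interaction of Gbp4, 0.02, changed sign to -0.00301 with limma voom and -0.11 with 20 libraries, and ran from -0.13 to 0.17 over the libraries left out. All 9 members kept their direction in the 3 effects. So did the other interferon-stimulated genes called in a main effect, apart from Gbp4 in the interaction. The genes named from the lists of receptors, signal genes, negative regulators and sensors were not followed in this way, unless they also belong to those above. Both filters on low counts left all 13766 genes, so they changed nothing. The lowest estimated count of a member, 9.38 for Usp18, limits its precision most. No paired analysis was possible because the labels give no replicate numbers.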
